A study of Mus musculus with 30 samples.

Results

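The genes described here encode the proteins of the cytosolic ribosome of the mouse. They were taken by name: gene symbols of the form Rpl or Rps followed by a number, with or without a closing a or x, together with Rplp0, Rplp1, Rplp2 and Rpsa, at least 1 count in every library and no pseudogene ending. The rule found 76 of the 49315 genes in the count table, 46 of the large subunit and 30 of the small subunit, and all 76 passed the filter on low counts that left 17774 genes for testing. No measured difference between groups entered the choice.

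A ribosome holds 1 copy of nearly every ribosomal protein, so cells make the mRNAs of these genes in step, at high levels and from short transcripts. Their mRNAs begin with a C followed by a run of pyrimidines, the 5′ terminal oligopyrimidine (TOP) tract, through which the kinase mTORC1 and the binding protein Larp1 set their translation and stability, while Myc raises their transcription. Ribosome supply can limit the growth of tumour cells, and free Rpl5 and Rpl11, carried with the 5S ribosomal RNA, bind Mdm2 and so stabilise p53.

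RNA came from 1 cell line, 4T1-tdTomato, which derives from a mammary carcinoma of a BALB/c mouse and is marked by the red protein tdTomato. The cells grew in female mice and were sorted as DAPI-, CD45- and tdTomato+. There were 30 libraries in 6 groups of 5. In BALB/c mice, whose immune system is intact and whose strain matches the line, 1 group was tumours grown from 200000 cells in the fat pad (days 21 and 22). The other groups came from lungs after 500000 cells by tail vein: DTC, a term the labels leave unexpanded, at day 7, and macro-mets at days 21 and 23. In NSG mice, which lack T, B and NK cells but keep myeloid cells, the same routes and cell numbers gave tumours at day 10, DTC at day 7 and macro-mets at days 19 and 20. Tumours thus differ from lung samples in organ, route and dose of cells at once, and except for DTC the strains differ in day, which cannot be told apart from stage and strain. Whether each library is a separate mouse is not stated, and p-values then measure only the spread between these samples, which may be technical. The number that opens each library title is never shared between groups. Its meaning is not stated, and it cannot be told apart from group.

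Total counts per library ran from 29832098 to 65621525. Every ribosomal protein gene was counted in every library because the rule that chose the genes required it. Between 17517 and 22187 genes were detected per library, and the 4 libraries with the fewest were BALB/c tumour 4, NSG tumours 2 and 3 and NSG macro-met 3. Levels are given as CPM, counts scaled to library size with TMM. Among the 76 genes the lowest mean level over the 30 libraries was 69.5 CPM (Rpl26). The part of counting error in the spread between libraries was not tested. Levels of 6 epithelial tumour markers summed to 4029 or more in every library. CD45 stood between 0.0369 and 6.62 CPM, and 3 of the 12 lung markers below were at 0 in all tumours of a strain (Sftpa1, Lamp3 and Scgb3a2 in BALB/c, Sftpb, Sftpd and Scgb3a2 in NSG mice). The 12 markers of lung epithelium summed to 4.18 to 12.4 CPM in the tumours of both strains, 75.6 to 3536 CPM in BALB/c DTC, 23.8 to 61.3 CPM in NSG DTC and 13.4 to 75.9 CPM in the macro-mets of both strains. Endothelial markers (12 genes) summed to 7.73 to 30.0 CPM in tumours and 41.2 to 536 CPM in DTC. Fibroblast markers (6 genes) summed to 247 to 840.3 CPM in tumours, 86.4 to 198 CPM in DTC and 312 to 554 CPM in macro-mets. Between the strains' DTC, neutrophil markers (6 genes) summed to 9.52 to 63.2 CPM in BALB/c and 1.15 to 2.85 CPM in NSG mice, and red cell markers (5 genes) to 4.12 to 10.9 and 17.4 to 65.4 CPM. Macrophage markers (7 genes) summed to 15.1 to 627 CPM in BALB/c DTC and 22.8 to 68.1 CPM in NSG DTC. Skeletal muscle markers (5 genes) reached 767 CPM in 1 BALB/c tumour and up to 305 CPM in NSG macro-mets. Of these markers, Acta1 stood at 35.9 CPM in BALB/c tumour 4 and at 1.99 CPM or less in the other BALB/c tumours. Host markers thus move with organ, stage and strain, and apart from the lung epithelial and endothelial markers their part in the results was not tested.

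The start regions of 8 genes on which the results turn are shown first, chosen for how their mRNAs moved. RefSeq sequences (GRCm38.p6, the build of the count table) were at hand for 56 of the 76 genes in 66 windows of 300 bases. The 85 bases printed run from 60 before to 25 after the annotated start, 5′ to 3′ on the gene's strand, and capitals mark the 3 motifs named after the sequences, on either strand.
Rps2, chr17:24720003-24720087, plus strand: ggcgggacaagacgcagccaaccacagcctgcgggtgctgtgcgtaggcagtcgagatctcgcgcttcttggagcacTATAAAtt
Rpsa, chr9:120127706-120127790, plus strand: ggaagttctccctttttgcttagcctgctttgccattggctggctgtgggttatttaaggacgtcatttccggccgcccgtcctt
Rps27, chr3:90213624-90213708, minus strand: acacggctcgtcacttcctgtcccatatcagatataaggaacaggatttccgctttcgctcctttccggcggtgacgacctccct
Rpl38, chr11:114668520-114668604, plus strand: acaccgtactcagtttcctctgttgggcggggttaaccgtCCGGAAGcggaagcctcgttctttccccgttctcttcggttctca
Rpl41, chr10:128549144-128549228, minus strand: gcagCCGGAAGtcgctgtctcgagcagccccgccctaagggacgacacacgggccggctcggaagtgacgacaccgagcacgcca
Rpl36a, chrX:134585594-134585678, plus strand: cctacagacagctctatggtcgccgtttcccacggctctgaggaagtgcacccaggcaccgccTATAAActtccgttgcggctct
Rpl4, chr9:64173327-64173411, plus strand: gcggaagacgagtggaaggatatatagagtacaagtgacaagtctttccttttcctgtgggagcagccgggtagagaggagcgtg
Rpl5, chr5:107900468-107900552, plus strand: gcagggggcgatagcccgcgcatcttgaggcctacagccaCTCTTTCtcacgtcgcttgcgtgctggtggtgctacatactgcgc
Rps2 and Rpsa rose in BALB/c DTC over tumours, Rps27 and Rpl38 had the widest range over the groups, Rpl41 fell in BALB/c macro-mets, Rpl36a fell furthest in NSG DTC, and Rpl4 and Rpl5 differed least between the DTC of the 2 strains. CCGGAAG, a core that factors of the ETS family bind, was in 24 of the 66 windows (36.4%), against 8.86% of all 32851 RefSeq windows of this length. CTCTTTC, a run of pyrimidines, was in 20 (30.3%, against 8.16% of all windows) and TATAAA in 6 (9.09%, against 13.6%). None of the 3 contains another. A C at the annotated start followed by 4 pyrimidines was in 13 of the 66 windows (19.7%, against 2.51% of all windows), a count that depends on where RefSeq puts the first base. Each window holds 250 bases before the start and 50 from it, so a match need not lie in the mRNA. In the sequences printed, CTCTTTC of Rpl5 lies before the annotated start, and TATAAA of Rps2 and Rpl36a after it. These are letters in a window, not measured binding sites.

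Per length of mRNA, the most abundant was Rplp1, a protein of the stalk that recruits elongation factors, at a mean of 8694 TPM, the authors' length-scaled unit, over the 30 libraries. Rps26 (4826 TPM), Rps15 (4476 TPM), Rps12 (4407 TPM) and Rplp0 (4333 TPM) followed. The lowest mean was that of Rpl26 at 129.5 TPM, after Rpl35a (185 TPM), Rps15a (191 TPM), Rpl30 (191 TPM) and Rps19 (275 TPM). That is a 67.1-fold span, against 37.6-fold per kilobase of principal transcript. The lengths behind the deposited TPM equalled all annotated exons of the gene for 60 of the 76 (within a relative 0.001), a median of 1805.5 bases, whereas the principal transcripts have a median of 777.5 bases and run from 345 (Rps27) to 5179 bases (Rps15a). Per kilobase of principal transcript, Rplp1 stayed first at 3221 CPM per kb, Rps15 was second and Rps26 was 28th, and the rank correlation of the 2 scales over the 76 genes was 0.77. The order of the genes thus depends on which length is used, and between groups each gene is compared with itself.

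As a whole, the 76 genes took 4.45% to 10.3% of all counts. In BALB/c tumours the share was 7.33%, 7.94%, 8.00%, 10.3% and 8.88%, and in NSG tumours 7.88%, 6.78%, 7.83%, 6.63% and 5.98%. BALB/c DTC held 7.59%, 6.86%, 8.18%, 8.01% and 6.56%, and NSG DTC 5.41%, 4.45%, 5.79%, 5.10% and 6.04%. Every NSG DTC library was below every DTC library of BALB/c mice, and all but the highest lay below every tumour library. The share was 7.41%, 7.01%, 6.63%, 5.60% and 6.52% in BALB/c macro-mets and 5.96%, 5.99%, 6.26%, 6.78% and 6.23% in NSG macro-mets, which overlapped. BALB/c tumour 4, with the highest share, was also the library with the fewest genes detected. Both subunits had lower shares in NSG DTC than in BALB/c tumours: the large subunit took 5.08% ± 0.707 (SD, n = 5) of counts in BALB/c tumours and 3.27% ± 0.374 in NSG DTC, and the small subunit 3.41% ± 0.451 and 2.09% ± 0.247. In bulk RNA, fewer cells that express a gene and less of its RNA per cell cannot be told apart, and a share says nothing of RNA per cell.

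**Figure D1:**
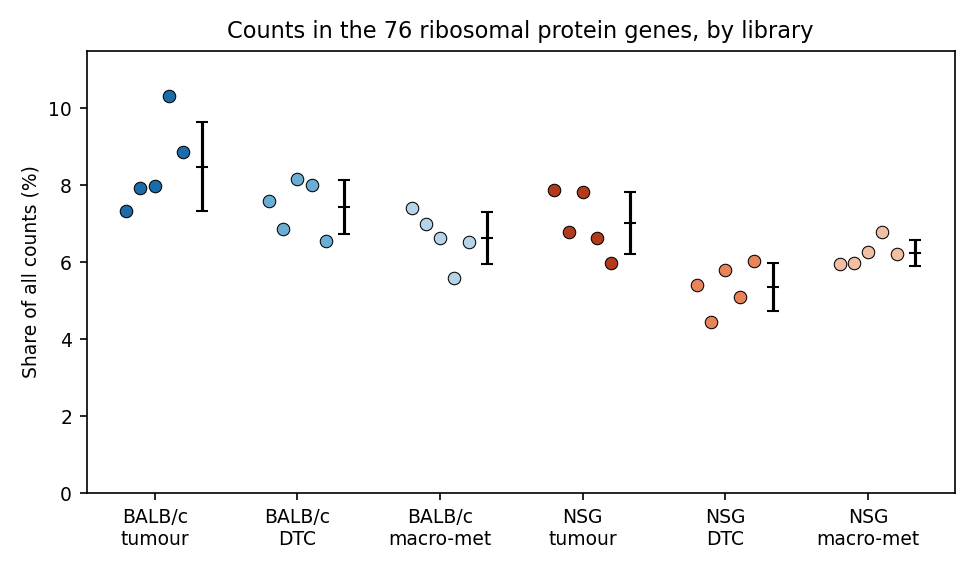
Share of all counts (percent, vertical axis from 0) in the 76 ribosomal protein genes in each library, by group; points are libraries and bars the mean ± SD (n = 5). NSG DTC lie between 4.45% and 6.04%, and BALB/c tumours between 7.33% and 10.3%.

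Gene by gene, the lowest of the 6 group means of log2 CPM was that of NSG DTC for 73 of the 76 genes, and the highest was that of BALB/c tumours for 59. The exceptions at the low end were Rpl5 (lowest in BALB/c DTC), Rpl7 (NSG macro-mets) and Rps2 (BALB/c macro-mets). The range of the group means had a median of 0.77 on the log2 scale. It was widest for Rps27 (1.24), Rpl38 (1.19), Rps29 (1.18), Rps14 (1.17) and Rpl37a (1.10). It was narrow for Rpl4 (0.30), Rps6 (0.35), Rpl14 (0.39) and Rpl7a (0.43).

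In NSG mice, DTC had less of nearly every ribosomal protein mRNA than tumours. All 76 log2 fold changes were below 0, from -0.70 (Rpl36a) to -0.30 (Rpl30), with a median of -0.49 against 0.06 over all genes. By edgeR's quasi-likelihood test with Benjamini-Hochberg adjustment over all 17774 genes (called at an adjusted p under 0.05), 73 fell and none rose, where 9.55% of all genes fell and 16% rose. That was 43 of 46 large-subunit genes (median -0.46) and 30 of 30 small-subunit genes (median -0.52). The 3 that were not called were Rpl41 (-0.42 ± 0.17 SE, adjusted p = 0.068), Rpl26 (-0.42 ± 0.16, adjusted p = 0.0516) and Rpl30 (-0.30 ± 0.15, adjusted p = 0.139), all of the large subunit. For 41 of the 76, every DTC library lay below every tumour library, as for 8.45% of all genes.

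Rpl36a, an X-linked large-subunit gene, had 494, 386, 448, 371 and 334 CPM in the 5 NSG tumours and 262, 201, 263, 216 and 309 CPM in the 5 NSG DTC libraries. The groups did not overlap, and the fall was -0.70 ± 0.15 (SE, n = 5 per group, adjusted p = 0.00112). Rps14, a protein of the small subunit's platform, had 1109.9, 795, 979, 854 and 743 CPM in tumours and 597, 446, 614, 546 and 665 CPM in DTC, again without overlap (-0.64 ± 0.13, adjusted p = 6.01e-04). Rpl34 (-0.68 ± 0.15) and Rps9 (-0.67 ± 0.10) were the other genes with the largest falls. Rpl4, which lines the exit tunnel for the nascent chain, was among the least changed, with 2159, 1821, 2032, 1745 and 1711 CPM in tumours and 1595, 1321, 1549, 1494 and 1707 CPM in DTC. The highest DTC library lay just below the lowest tumour, and it fell by 0.30 ± 0.09 (adjusted p = 0.00997). When all genes were scaled to the ribosomal protein genes themselves, so that each was compared with the family, 0 of the 76 departed from the rest in this contrast at an adjusted p under 0.05 (41.9% of all genes were then higher and 1.59% lower). The same scaling with GC and length offsets gave 12 departing genes (5 higher and 7 lower), and with offsets from principal transcripts 19. The number that departed thus depends on that choice. Shares of all genes in the fits that join this scaling with offsets are not given here.

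The lung marker level, the mean log2 CPM of the tested lung epithelial and endothelial markers, was -2.25 to -1.14 in NSG tumours and 1.14 to 1.62 in NSG DTC, with no overlap. With that level as a covariate the median change was -0.36, the median SE of a gene rose from 0.12 to 0.17, and the number called fell from 73 to 2. In that fit 1.96% of all genes were lower and 2.26% higher. Organ and marker level cannot be told apart here. Without the 4 libraries with the fewest genes, 76 of 76 fell (median -0.56, with 12.3% of all genes).

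**Figure D2:**
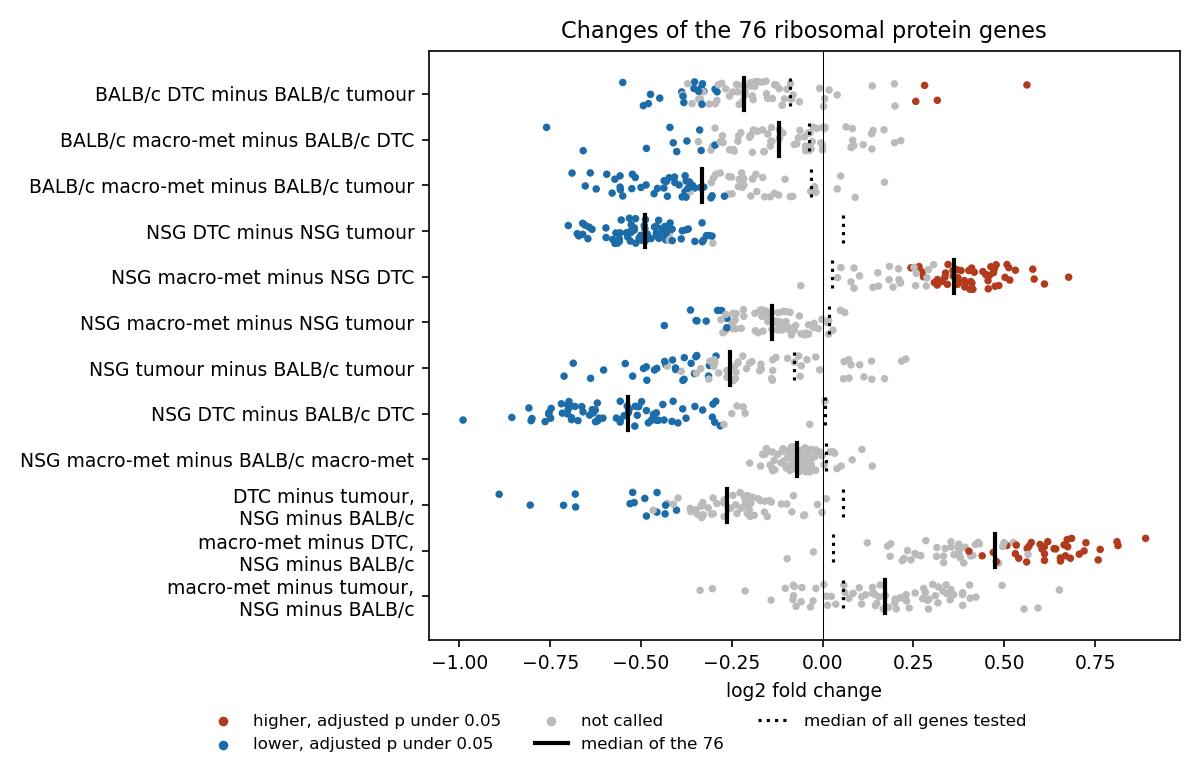
Log2 fold change (horizontal axis) of each of the 76 ribosomal protein genes in 9 comparisons of groups and 3 differences between strains; colours mark calls, thick bars the median of the 76 and dotted bars that of all genes tested. All points of NSG DTC minus NSG tumour lie below 0, and those of NSG macro-met minus BALB/c macro-met lie around 0 with none called.

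DTC of the 2 strains were taken from the same organ on the same day after the same injection, and the family differed here too. In NSG DTC 69 of the 76 genes were lower than in BALB/c DTC and none higher, where 17.1% of all genes were lower and 21.7% higher. The median was -0.54 against 0.01 over all genes. Of the 76, 47 had groups without overlap (lower in 12.3% of all genes). Rps14 showed the largest difference, with 1201, 1007, 1314, 1379 and 795 CPM in the 5 BALB/c DTC libraries against 597, 446, 614, 546 and 665 in the NSG libraries listed above (-0.99 ± 0.13, adjusted p = 1.19e-06). The lowest BALB/c library, replicate 5, was still above the highest NSG library. Rpl41, the shortest of the ribosomal proteins, had 1346, 1309, 1787, 1594 and 985 CPM in BALB/c DTC and 762, 634, 789, 690.3 and 1005 CPM in NSG DTC. Those groups overlapped at BALB/c replicate 5 and NSG replicate 5, and the difference was -0.86 ± 0.17 (adjusted p = 1.79e-04). Rplp1 differed by -0.81 ± 0.12.

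Rpl4 and Rpl5 were among the 7 genes that were not called, and their means differed little. Rpl4 had a mean of 1572 ± 71.6 CPM (SD, n = 5) in BALB/c DTC and 1533 ± 142 CPM in NSG DTC, a difference of -0.04 ± 0.09 (adjusted p = 0.782). Rpl5, which carries the 5S ribosomal RNA, had 1142 ± 74.2 and 1147 ± 130.2 CPM (0.01 ± 0.10, adjusted p = 0.968). Against the rest of the family both stood higher in NSG DTC, Rpl4 by 0.51 ± 0.09 (adjusted p = 3.82e-05) and Rpl5 by 0.55 ± 0.09 (adjusted p = 8.66e-06). The value of Rpl5 depends on the treatment of base composition, and its sign changes with most settings. Its principal transcript has 42.7% GC, the second lowest of the 76, and with offsets for the GC content and length of genes it was lower in NSG DTC, at -0.62 ± 0.13 (adjusted p = 3.8e-04). Over the family, 52 genes were lower and none higher with these offsets (median -0.41, with 14.9% of all genes lower and 11.3% higher), and 71 were lower with the lung marker covariate (18.3% of all genes), although the 2 BALB/c DTC libraries richest in lung RNA (replicates 1 and 2, lung marker levels 5.96 and 4.56) have no NSG counterpart. Without those 2 libraries 71 were lower (16% of all genes were lower and 19.5% higher).

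From DTC to macro-mets in NSG lungs the family rose again. Of the 76 genes 51 rose and none fell (21.3% of all genes rose and 22.4% fell), with a median of 0.36 against 0.02 over all genes. 30 genes had groups without overlap (higher in 17.3% of all genes). Rpl36 had 262, 204, 212, 231 and 326 CPM in DTC and 364, 339, 410.0, 473 and 390.0 CPM in macro-mets. All 5 macro-mets were above all 5 DTC libraries, and the rise of 0.68 ± 0.15 was the largest of the family (adjusted p = 3.86e-04). Its size depends on the processing: under other settings it lay between 0.18 and 1.02, and 12 of 15 kept the call. Rpl36a (0.61 ± 0.15), Rpl13 (0.58 ± 0.11) and Rps14 (0.52 ± 0.13) rose as well. Rpl7, Rpl4, Rps2 and Rpl5 had small differences (-0.06, 0.04, 0.05 and 0.09, none called), and each was lower than the family when scaled to it, Rpl7 at -0.41 ± 0.09 (adjusted p = 6.17e-04). With GC and length offsets 27 rose and 1 fell (median 0.24, with 22.8% and 15.6% of all genes), and without NSG macro-met 4 the count was 30.

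In NSG macro-mets against NSG tumours 9 genes were lower and none higher (13.6% and 16.9% of all genes), a share near the background, with a median of -0.14. Rpl7 was the lowest, with 1526, 1259, 1373, 1193 and 1115 CPM in tumours and 929, 954, 869, 1042 and 986 CPM in macro-mets (-0.44 ± 0.14, adjusted p = 0.0149). No macro-met library reached the lowest tumour library. Rpl9 (-0.36 ± 0.11) and Rpl5 (-0.35 ± 0.10) followed. The count lay between 5 (without NSG macro-met 2) and 20 (without NSG tumour 5) when single libraries were left out, 21 of the 30 of which moved it by more than 1.5 times. It lay between 0 (lung marker covariate) and 25 (GC and length offsets, all lower, with 14.8% of all genes lower and 13% higher) under other settings.

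In BALB/c mice calls in both directions were found only between tumours and DTC. There 4 genes rose and 17 fell, where 20.4% of all genes rose and 21% fell. The share that fell (17 of 76) was thus close to the background, and the share that rose (4 of 76) was below it. Of the 76 changes 65 were below 0. The median was -0.22 against -0.09 over all genes. Rps2, a protein at the entry of the mRNA channel, had 637, 560.0, 694, 684 and 539 CPM in tumours and 801, 899.8, 1056, 999.9 and 841 CPM in DTC. Every DTC library was above every tumour library, and the rise was 0.56 ± 0.10 (adjusted p = 6.52e-05). Rpl8, which lies next to the peptidyl transferase centre, had 1356, 1332, 1325, 1253 and 1181 CPM and 1449.8, 1521, 1658, 1749 and 1646 CPM, also without overlap (0.32 ± 0.10, adjusted p = 0.016). Rpsa, the small-subunit protein also known as a laminin-binding protein, had 4089.8, 3825, 3968, 3925 and 3753 CPM in tumours and 4354, 4481, 5045, 5319.7 and 4561 CPM in DTC (0.28 ± 0.09, adjusted p = 0.015). Its groups did not overlap either. Rplp0, the base of the stalk, rose by 0.26 ± 0.09 (adjusted p = 0.024).

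The falls were led by Rps27, a zinc-binding small-subunit protein, with 481, 515, 586, 818 and 612 CPM in tumours and 417, 372, 492, 489 and 286 CPM in DTC. DTC replicates 3 and 4 lay above tumour 1 and below the other tumours, and the fall was -0.55 ± 0.16 (adjusted p = 0.00659). Rpl37a (-0.49 ± 0.14) and Rpl22 (-0.48 ± 0.12), an RNA-binding protein of the large subunit, followed. With GC and length offsets Rps2 remained higher at 0.34 ± 0.11 (adjusted p = 0.0173), whereas Rpl8 (0.11 ± 0.09), Rpsa (0.09 ± 0.11) and Rplp0 (0.04 ± 0.10) were no longer called. In that fit 1 gene rose and 34 fell (19.6% and 18.2% of all genes). With the lung marker covariate 4 genes rose and none fell (median -0.05, where 16.4% of all genes rose and 17.1% fell). Without the 4 libraries with the fewest genes 5 rose and 7 fell (22.9% and 22.1% of all genes). Without the 2 lung-rich DTC libraries 4 rose and 8 fell (17.3% and 18.9% of all genes). The lung marker level was -2.01 to -1.17 in BALB/c tumours and 1.23 to 5.96 in BALB/c DTC; its part in the falls cannot be told apart from organ. Leaving out 1 library gave 17 to 39 calls, with 39 without BALB/c tumour 1, 36 without BALB/c DTC 3, 33 without NSG tumour 5 and 32 without each of NSG tumour 1, NSG DTC 2, BALB/c macro-met 1 and NSG macro-met 3.

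**Figure D3:**
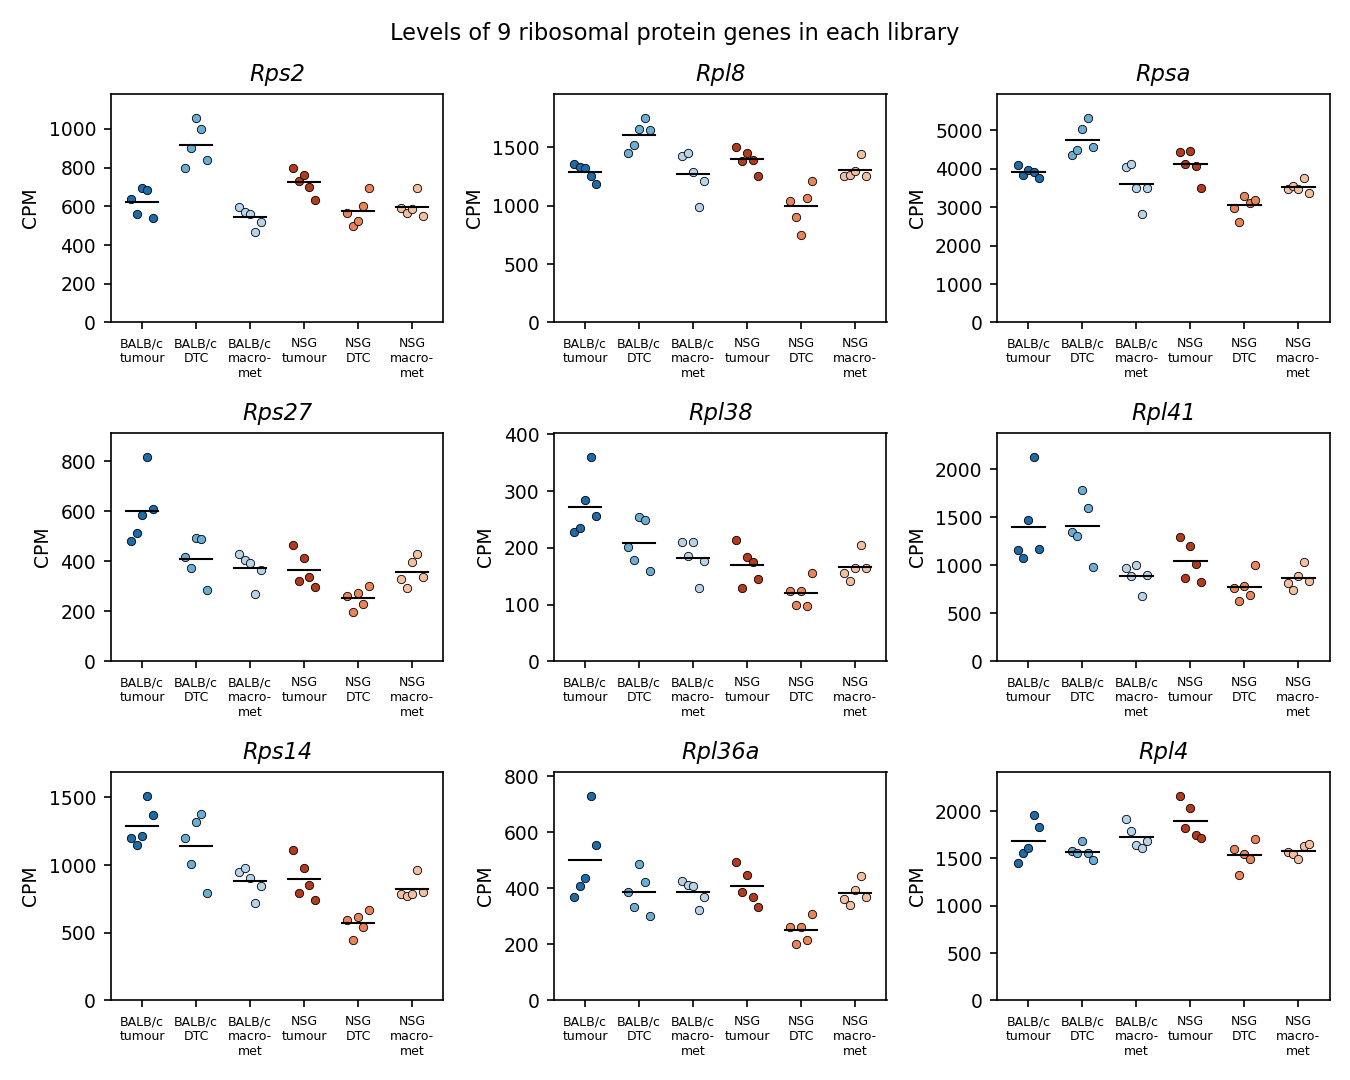
Level of 9 ribosomal protein genes (CPM, vertical axes from 0) in each library, by group; points are libraries and lines group means (n = 5). Rps2, Rpl8 and Rpsa stand highest in BALB/c DTC, Rps27 and Rpl38 in BALB/c tumours, and Rpl4 lies at 1533 to 1893 CPM in the group means.

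From BALB/c DTC to macro-mets 10 genes fell and none rose (14.2% and 16.6% of all genes), a share at the background, with a median of -0.12. Rps2 returned to 595, 573, 562, 466 and 518 CPM, below all DTC libraries (-0.76 ± 0.10, adjusted p = 1.31e-06). Rpl41 fell by 0.66 ± 0.17 to 977, 892, 1001, 679.9 and 895 CPM (adjusted p = 0.00376), with an overlap at DTC replicate 5. Rps15 changed by -0.49 ± 0.12, Rpsa by -0.40 ± 0.09 and Rplp1 by -0.42 ± 0.12.

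Against BALB/c tumours, macro-mets had 41 genes lower and none higher (18.2% and 19.6% of all genes), with a median of -0.33 against -0.03 over all genes. The shortest 10% of all genes had a median of -0.31, near that of the family. Over the 76 genes the rank correlation of change and principal transcript length was 0.38. Of the 76, 18 had groups without overlap (lower in 9.66% of all genes). Rps27 had 431, 408, 394, 270.3 and 364 CPM in macro-mets, all below the lowest tumour (-0.69 ± 0.16, adjusted p = 0.00119). Rpl41 (-0.65 ± 0.17) and Rps29 (-0.64 ± 0.16) fell by similar amounts. Rpl4 stood apart from the family, at 0.04 ± 0.09 in itself and 0.37 ± 0.09 relative to the other genes (adjusted p = 0.00227). With GC and length offsets 49 genes were lower and none higher (16.3% and 18.8% of all genes), and with the lung marker covariate 19 were lower (21.1% of all genes).

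Between the tumours of the 2 strains, which also differ in day, 26 genes were lower in NSG tumours and none higher (11% and 12.6% of all genes), with a median of -0.26 against -0.08. The largest differences were those of genes with short transcripts. Rps27, with the shortest principal transcript, had 464, 322, 415, 337 and 299 CPM in NSG tumours against the BALB/c values above (-0.71 ± 0.16, adjusted p = 0.00141). All 5 lay below the lowest BALB/c tumour. Rpl38, known for its part in the translation of Hox mRNAs and with a principal transcript of 364 bases, had 227, 236, 284, 359.9 and 256 CPM in BALB/c and 214, 129.8, 184, 174 and 145 CPM in NSG tumours, without overlap (-0.69 ± 0.16, adjusted p = 0.00212). Rps29 (-0.64 ± 0.16) was the next. Over the 76 genes the rank correlation of change and principal transcript length was 0.51, a description over genes that share libraries. The 1774 genes of the shortest 10% of all genes, of which 33 are ribosomal protein genes, had a median of -0.25, near that of the family. The count of 26 rests on few libraries: without the 4 with the fewest genes 1 was lower and 1 higher (median -0.13, with 8.41% and 12.1% of all genes), without BALB/c tumour 4 alone 11 were lower and 1 higher, and it was 11 without NSG tumour 5, 13 without NSG tumour 2, 15 without BALB/c tumour 5 and 16 without NSG tumour 4. With length offsets 4 were lower and 5 higher (8.39% and 16.6% of all genes).

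**Figure D4:**
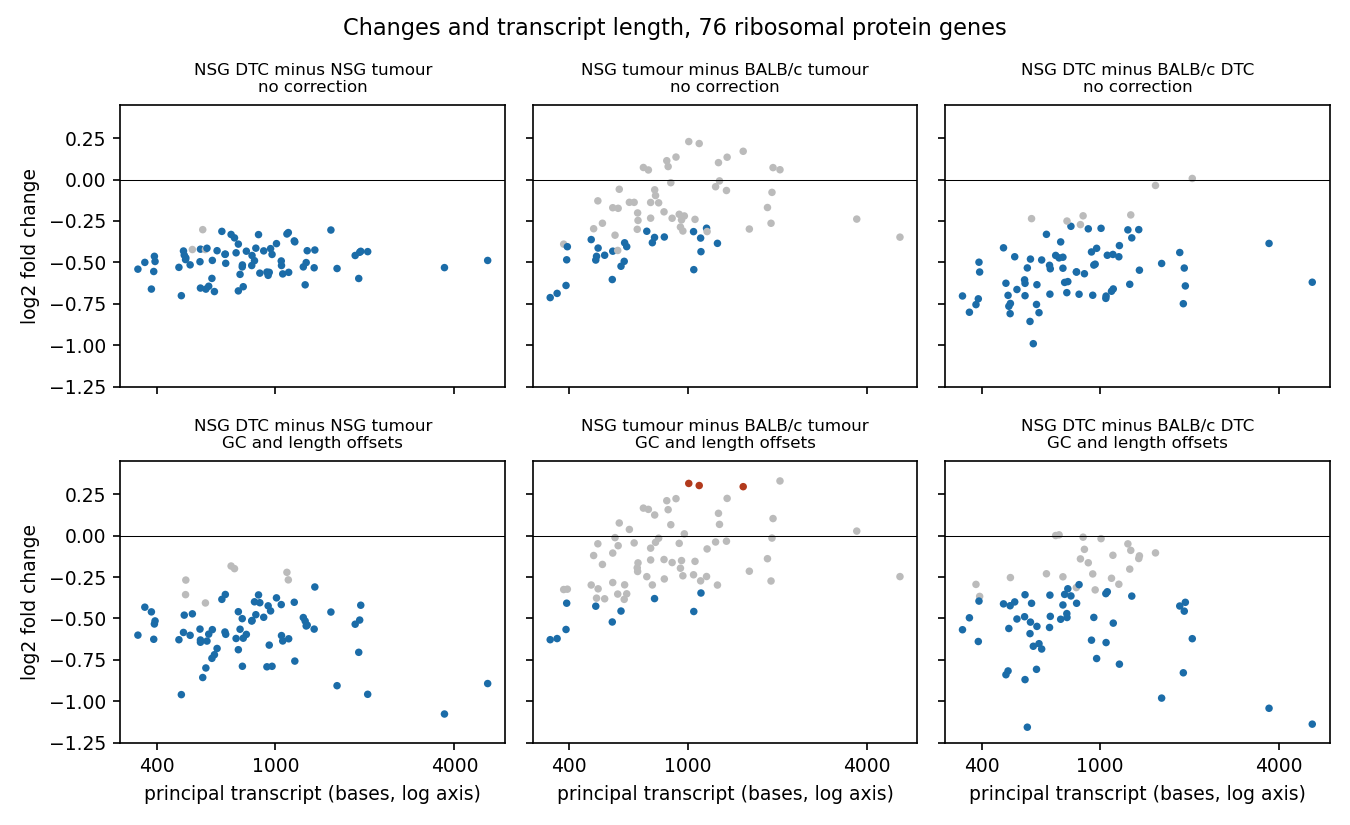
Log2 fold change against the length of the principal transcript (bases, log axis) of the 76 genes in 3 comparisons, without correction (top) and with GC and length offsets (bottom); colours mark calls as lower (blue), higher (red) or none (grey). In NSG tumour minus BALB/c tumour the shortest transcripts lie lowest in both rows, where the rank correlation with principal transcript length is 0.51 without and 0.49 with offsets. The offsets used the length of all annotated exons, not the length on the axis, so the lower row does not test a correction for the latter.

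Between the macro-mets of the 2 strains no difference was detected: 0 of 76 were called by edgeR, 0 by DESeq2 and 0 at an unadjusted p under 0.05, where 0.76% of all genes were higher and 1.88% lower in NSG mice. The median was -0.07 with changes from -0.20 (Rpl23a) to 0.14 (Rps2) and SEs of 0.09 to 0.17. Rps14, which differed most between DTC, differed here by -0.10 ± 0.13.

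Whether a stage changed the family differently in the 2 strains was tested directly. The change from tumour to DTC was lower in NSG than in BALB/c mice for 15 genes and higher for none (15% and 18.4% of all genes), a share near the background, with a median difference of -0.26 (-0.02 on log2(TPM + 1)). It was largest for Rps2 (-0.89 ± 0.15, adjusted p = 2.68e-05), Rpl8 (-0.81 ± 0.15, adjusted p = 1.04e-04) and Rpsa (-0.71 ± 0.13, adjusted p = 9.61e-05), then for the stalk genes Rplp0 (-0.68 ± 0.13) and Rplp1 (-0.68 ± 0.18). Rps2, Rpl8, Rpsa and Rplp0 rose in BALB/c DTC and fell in NSG DTC, where Rps2 had 796, 731, 762, 699 and 631 CPM in tumours and 565, 498, 523, 599.7 and 697 CPM in DTC. NSG DTC replicate 5 lay above tumour 5 there (-0.33 ± 0.10, adjusted p = 0.0175). Under other settings this fall of Rps2 lay between -0.46 and -0.12, and 8 of 15 kept the call. The rises of Rpl8, Rpsa and Rplp0 in BALB/c DTC were not called with GC and length offsets, as given above. The change from DTC to macro-met was higher in NSG mice for 36 genes and lower for none (11.6% and 16.6% of all genes), with a median difference of 0.47. Rps14 (0.89 ± 0.19), Rpl41 (0.81 ± 0.24) and Rps2 (0.81 ± 0.15) led. The first count was 27 without BALB/c tumour 4, and the second was 22 without BALB/c DTC 3, 22 without NSG macro-met 4 and 23 without BALB/c DTC 4 or BALB/c macro-met 4. Each of these comparisons uses the same DTC libraries. For the change from tumour to macro-met 0 genes were called by edgeR or DESeq2 (6 higher and 2 lower at an unadjusted p under 0.05, 1.7% of all genes called higher and 3.53% lower), and 1 without BALB/c tumour 4.

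Departures from the family were counted by scaling every library to the ribosomal protein genes. Between BALB/c DTC and tumours 8 genes stood above the family and 6 below (23.2% and 12.3% of all genes), led by Rps2 (0.74), Rpl8 (0.49) and Rpsa (0.45) and by Rps27 (-0.36), Rpl37a (-0.31) and Rpl22 (-0.29). From DTC to macro-mets in BALB/c mice 7 stood above and 7 below (16.5% and 7.63% of all genes), and Rps2 (-0.63) was then the lowest. Between the tumours of the strains 12 were above and 8 below (17.7% and 5.24% of all genes), and between the DTC 11 above and 6 below (40% and 2.2%). With GC and length offsets these counts together went from 14 to 23 in BALB/c DTC against tumours. Between the DTC they went from 17 to 25, and to 38 with offsets from principal transcripts. Shares of all genes in these fits with offsets are not given here. The 17 was 9 without BALB/c DTC 3 or 4, 10 without BALB/c DTC 1, NSG DTC 2 or NSG DTC 4, and 11 without NSG DTC 1. Of the stalk genes, Rplp0 (0.43) and Rplp1 (0.38) stood above the family in BALB/c DTC, and Rplp2 (-0.03) was not called.

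The libraries also differ in how their values follow base composition. Across all tested genes, the rank correlation of a library's departure from the mean library with GC content was -0.61 to -0.33 in NSG DTC. It ran from -0.10 to 0.45 in the DTC of BALB/c mice, from 0.20 to 0.41 in NSG macro-mets, from 0.05 to 0.40 in those of BALB/c mice and from -0.28 to 0.03 in tumours. With exonic length it was 0.08 to 0.25 in NSG DTC and -0.20 to -0.07 in BALB/c DTC. NSG DTC libraries thus had higher values of long, AT-rich genes. The 76 genes are short but not extreme in GC, with a median of 51.3% in their principal transcripts against 50.3% over all tested genes. With offsets that remove each library's trend with GC and length 69 genes were lower in NSG DTC than in NSG tumours (median -0.55 against -0.11 over all genes, of which 16.4% were lower and 7.43% higher). In NSG DTC against NSG tumours the shortest 10% of all genes had a median of -0.06, against the family's -0.49. Between the tumours of the strains 10 were lower and 3 higher with the offsets (8.98% and 17% of all genes).

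**Figure D5:**
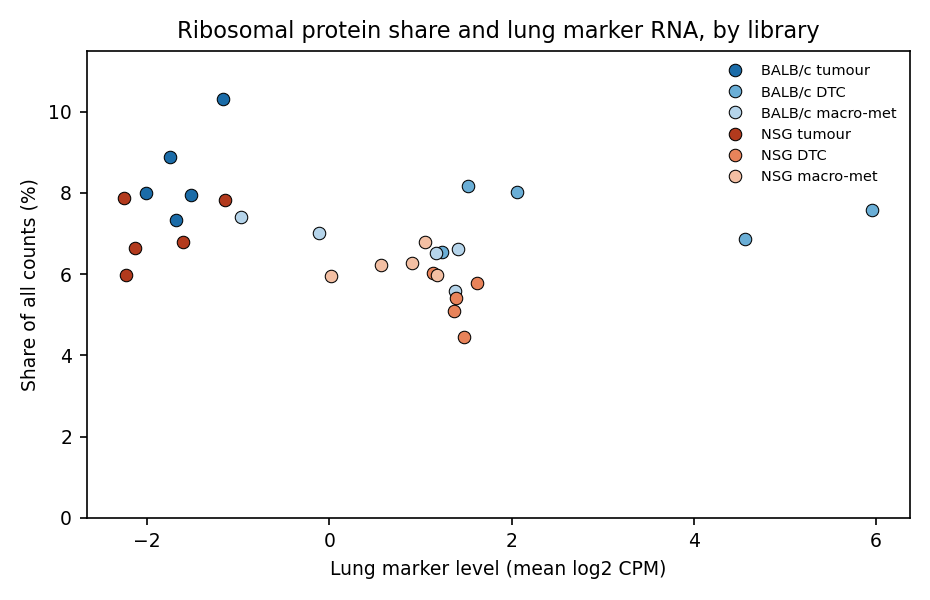
Share of all counts in the 76 genes (percent, vertical axis from 0) against the lung marker level (mean log2 CPM of lung epithelial and endothelial markers) in each library, coloured by group. NSG DTC lie at lung marker levels of 1.14 to 1.62 with 4.45% to 6.04%, next to BALB/c macro-mets and the less lung-rich BALB/c DTC, and tumours of both strains lie at -1.14 or less.

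Ribosomal protein genes whose names fall outside the pattern also fell in NSG DTC. Fau, the fusion gene of Rps30, fell by 0.55 ± 0.12 in NSG DTC against tumours (adjusted p = 9.5e-04), Rack1, the scaffold protein on the small subunit, by 0.61 ± 0.10 and Rps3a1 by 0.39 ± 0.12. Of 6 paralogs tested, Rpl22l1 fell in NSG DTC (-0.66 ± 0.18), and Rps27l, a p53 target nearly identical in protein to Rps27, rose in BALB/c DTC against tumours (0.71 ± 0.13, adjusted p = 8.19e-05) where Rps27 fell. It was lower in NSG than in BALB/c DTC (-0.54 ± 0.13). Near-identical copies can exchange reads, as Rps27 with Rps27l, Rpl36a with Rpl36al and Rpl22 with Rpl22l1 may. A further 280 genes named as ribosomal pseudogenes held 0.107% to 0.253% of counts, and the 99 of them that were tested had a median of -0.52 in NSG DTC against tumours; 9 of them fell, a share near the 9.55% of all genes. Values of genes with such copies are less certain.

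Genes of translation outside the ribosome fell in part. Of 20 elongation factors and other TOP genes, 11 fell and none rose between NSG tumours and DTC (9.55% and 16% of all genes, median -0.35). Those that fell included Eef2, the translocation factor (-0.73 ± 0.11), and Tpt1 (-0.74 ± 0.13). In BALB/c DTC against tumours 11 of the 20 fell and 2 rose (21% and 20.4% of all genes), with Tpt1 at -0.84 ± 0.13. Of 44 ribosome biogenesis genes, 26 rose and none fell in BALB/c DTC against tumours (20.4% and 21% of all genes, median 0.49). They were led by Bop1 (1.11 ± 0.11) and Nolc1 (0.90 ± 0.09), factors of pre-rRNA processing. In NSG DTC against tumours 16 rose and 2 fell (16% and 9.55% of all genes). Between the strains' DTC 25 were lower in NSG and 9 higher (17.1% and 21.7% of all genes), the share that was higher being near the background. The lower ones included Rrp9 (-1.30 ± 0.15) and Bop1 (-0.93 ± 0.11).

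Mitochondrial ribosomal proteins belong to the separate ribosome of mitochondria. Of 78, 48 rose and 2 fell in BALB/c DTC against tumours (20.4% and 21% of all genes, median 0.41). In NSG DTC against tumours 0 rose and 2 fell (16% and 9.55% of all genes, median -0.09). Between the strains' DTC 53 were lower in NSG and 1 higher (17.1% and 21.7% of all genes, median -0.39). Of 37 nuclear subunits of oxidative phosphorylation, 18 rose and 1 fell in BALB/c DTC against tumours (20.4% and 21% of all genes), with Atp5b at 0.59 ± 0.09. In NSG DTC against tumours 1 rose and 4 fell (16% and 9.55% of all genes), the share that fell being near the background. Between the strains' DTC 31 were lower in NSG and 1 higher (17.1% and 21.7% of all genes). The lower ones included Cox8a (-0.63 ± 0.10). Among 18 tested regulators of the Myc and TOR pathways, 11 rose and 2 fell in BALB/c macro-mets against tumours (19.6% and 18.2% of all genes). In that comparison 41 ribosomal protein genes fell. Myc itself rose there (1.64 ± 0.15, adjusted p = 7.65e-09), as did Sesn1, an inhibitor of mTORC1 (1.63 ± 0.16). Whether p53 acts in these cells was not tested, so its known targets are listed by name only. Of 8 p53 targets linked to ribosome stress 3 rose and 2 fell in BALB/c DTC against tumours (20.4% and 21% of all genes). Cdkn1a, the cell cycle inhibitor p21, at 2.26 ± 0.19, was at the top of those that rose. Those that fell included Mdm2, the ubiquitin ligase that acts on p53, at -0.35 ± 0.12 (not called without BALB/c tumour 5, with no low-count filter, with principal-transcript offsets or with only the groups compared) and Ccng1, cyclin G1, at -0.79 ± 0.20, a value that turned to 0.03 with GC offsets.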

How the data were processed

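The authors deposited raw counts per Ensembl gene and TPM values for the 30 libraries. Per the submitters' processing notes, Trimmomatic 0.36 and STAR 2.5.2b were used with GRCm38 (mm10). The counting tool, strand setting and annotation are not given in the sources used here. From the counts, filterByExpr kept 17774 of 49315 genes. They were scaled by TMM and fitted with 6 group means over all 30 libraries (edgeR 4.0.16, R 4.3.3, robust quasi-likelihood). The SE of a log2 fold change is its absolute size divided by the square root of the F statistic of its test. It thus rests on a spread pooled over all libraries in the fit (24 residual degrees of freedom with all 30), not on the 5 of each group alone. Lengths and GC content came from GENCODE M21, which held 49056 of the IDs. GC and length offsets were spline trends per library (5 degrees of freedom). Unless principal transcripts are named, they used the length of all annotated exons and the GC content over all transcripts of a gene. The fit was tested on simulated data: it recovered fold changes of known size, but called few of the smaller ones and missed many of the larger. The simulation gave all genes the same spread, and whether the 76 genes vary in that way was not checked. Its share of missed calls therefore does not carry over to them, but a difference that was not called may still be present. Alternatives were RLE scaling, scaling without the 76 genes, DESeq2 1.42.0, no filter, offsets, limma 3.58.1 on log2(TPM + 1) and log2(TPM + 0.1), a covariate of lung epithelial and endothelial markers, only the groups compared, and leaving out each library. Offsets from principal transcripts, leaving out 4 libraries with few genes or 2 with much lung RNA, and scaling to the family were chosen after seeing the data.

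Named genes were the 3 largest called rises and falls per comparison, the 5 highest and lowest in TPM, the 5 widest and narrowest in range of group means, ribosomal proteins outside the pattern, paralogs, and the 3 of each other list with the smallest adjusted p. Results of 2 genes that the rule took are not reported here. Others were chosen after their values were seen, as were the 8 promoters. The genes and lists were chosen with earlier results of these data known. Reads without molecular identifiers are not independent molecules.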

Additional observations from a re-analysis of the deposited data

Results flagged for a closer look

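Within groups, 150 sets of 5 libraries were checked for a library far from the rest, and chance alone marks about 5% of such sets; 5 were marked. NSG macro-met 4 stood above the other macro-mets of its group in Rps2 (695 CPM, others 548 to 589.5 CPM), Rpl8 (1444 CPM, others 1252 to 1293 CPM), Rplp0 (3003 CPM, others 2529 to 2615 CPM) and Rps14 (960.3 CPM, others 769 to 798 CPM). It also has the highest share of counts in the 76 genes among NSG macro-mets, 6.78%. BALB/c macro-met 4 was lowest for Rpl26 (50.5 CPM, others 64.0 to 69.1 CPM) and holds the lowest share of its group, 5.60%.

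By the interaction terms of the fit, the change from tumour to DTC differed between the strains for 15 of the 76 genes, lower in NSG mice for each, a share near the 15% of all genes that were lower. The change from DTC to macro-met differed for 36, higher in NSG mice for each, against 11.6% of all genes.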

How the results depend on the processing

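Counts of called genes among the 76 kept their direction and stayed within 1.5 times under all alternatives for NSG DTC against BALB/c DTC (69, from 47 to 74, of which 2 were higher with TPM) and for the macro-mets of the 2 strains (0 throughout). Elsewhere some alternatives moved them, and the cause was not tested. The shares of all genes called moved too. Unless a direction is named, a count holds calls both ways. For BALB/c DTC against tumours (21), GC and length offsets gave 35, offsets from principal transcripts 32, log2(TPM + 1) 46, log2(TPM + 0.1) 46, log2(TPM + 1) with no filter 40, and leaving out the 4 libraries with few genes or the 2 with most lung RNA 12 each. The lung marker covariate gave 4, all higher, where most calls had been lower. Under the settings named before it, 10.5% to 22.9% of all genes rose and 11.7% to 24.2% fell. BALB/c macro-mets against DTC (10) gave 17 without the 4 libraries (19.9% of all genes lower, 17.3% higher). Against tumours (41) they gave 19 with the lung covariate (21.1% and 20.7%). NSG DTC against tumours (73) gave 36 with TPM and no filter, where 2.19% of all genes were lower and 15.5% higher. It gave 2 with the lung covariate (1.96% and 2.26%). NSG macro-mets against DTC (51) gave 28 with GC and length offsets, where 22.8% of all genes were higher and 15.6% lower. It gave 25 with TPM and no filter (8.26% and 16.7%). NSG macro-mets against tumours (9) gave 16 with RLE scaling, DESeq2 or without the 2 lung-rich libraries, 4 with no count filter, 25 with GC or GC and length offsets, 23 with principal-transcript offsets or only the groups compared, and 0 with the lung covariate. NSG against BALB/c tumours (26) gave 13 with GC and length offsets, 10 with GC offsets, 16 with principal-transcript offsets, 40 with either TPM pseudocount and 2 without the 4 libraries; with length offsets 9 were called, 5 higher and 4 lower. The difference between strains in the step from tumour to DTC (15) gave 24 with GC or principal-transcript offsets, 29 with length offsets, 6, 5 and 4 with log2(TPM + 1), log2(TPM + 0.1) and TPM with no filter, and 36 without the 4 libraries. That from DTC to macro-met (36) gave 21 with GC and length offsets or either TPM pseudocount, 14 with TPM and no filter, and 55 with only the groups compared. That from tumour to macro-met (0) gave 4 with either TPM pseudocount. Of all genes, 6.58% to 20.4% were lower and 8.9% to 19.4% higher for NSG macro-mets against tumours under the settings listed. For NSG against BALB/c tumours these shares were 8.39% to 12.4% and 12.1% to 18%. They were 3.75% to 25.2% and 9.58% to 28% for the difference in the step to DTC. For that from DTC to macro-met they were 6.63% to 28.2% and 2.01% to 16.8%. Leaving out 1 library gave 17 to 39, 7 to 13, 29 to 50, 64 to 75, 30 to 56, 5 to 20, 11 to 33, 63 to 72, 12 to 27, 22 to 43 and 0 to 1 for the counts of 21, 10, 41, 73, 51, 9, 26, 69, 15, 36 and 0 (tumour to macro-met), and 0 to 0 for the macro-mets.

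Of 1065 values of 71 gene results under other settings, 945 kept direction and call, 81 lost and 23 gained the call and 16 changed sign. Rpl5 in NSG macro-mets against tumours was 0.032 with principal-transcript offsets. Ccng1 in BALB/c DTC against tumours was 0.0305 with GC offsets. Rpl4 between the DTC was 0.21 with log2(TPM + 1), log2(TPM + 0.1) or no TPM filter. Rpl5 between the DTC was -0.027 with RLE scaling or DESeq2, -0.033 with the lung covariate, -0.047 with no filter, -0.62 with GC and length, -0.78 with GC, -0.042 with length and -0.69 with principal-transcript offsets, -0.058 with only the groups compared, -0.072 without the 4 libraries and -0.024 without the 2. Leaving out 1 library gave -0.079 to 0.0014 for Rpl4 and -0.037 to 0.0525 for Rpl5. TPM and length offsets also move the median of all genes: with log2(TPM + 1) it was 0.23 for NSG DTC against tumours, and with length offsets -0.17. On log2(TPM + 1) the median of the 76 was -0.27 for NSG DTC against tumours, -0.30 between the DTC, and -0.02 and 0.21 for the differences between strains in the steps to DTC and to macro-met; without the 4 libraries the former of these was -0.47. Departures from the family rose from 0 to 12 in NSG DTC against tumours with GC and length offsets, as the results state. No paired analysis was possible because the library titles give groups no shared replicate numbers.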
